A study of Drosophila melanogaster with 3 samples.

Results

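The 257 genes whose symbol begins with snoRNA: on the main chromosome arms of Drosophila melanogaster were set against the binding sites of Rel, out of 23973 annotated genes on those arms. Members were chosen by symbol alone, and 253 of them carry the annotation class snoRNA, with the other 4 annotated as ncRNA. Rel was immunoprecipitated with an anti-GFP antibody from whole L3 larvae at the wandering stage, shortly before pupation, of a transgenic line that stably expresses Rel with GFP at its N terminus. Males and females were pooled and the age was unknown. The 3 samples were biological replicates of that single group, with fragments of 200 to 800 bp, so no second condition existed and no test between conditions was possible. The labels also name a control experiment, not analysed here. Because whole larvae mix all cell types, a peak cannot be assigned to a tissue, and fusion-protein binding stands in for that of the untagged protein.

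Small nucleolar RNAs (snoRNAs) guide chemical changes of ribosomal RNA in the nucleolus. Those with C and D boxes direct 2′-O-methylation with the methyltransferase fibrillarin, those with H and ACA boxes direct conversion of uridine to pseudouridine with dyskerin, and U3 takes part in cleavage of the ribosomal RNA precursor. Most fly snoRNAs are cut out of the introns of other genes, often genes of the translation machinery, and their host's promoter then drives them, while others have promoters of their own. Rel (Relish) is the NF-κB family factor that the IMD immune pathway activates, and it binds κB sites.

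Sequence classes followed the gene names. The ACA triplet near the 3′ end was present in 110 of 115 H/ACA-named members (95.7%). A C box TGATGA together with a D box CTGA was present in 76 of 109 C/D-named members (69.7%) and in 0 of the H/ACA-named members. The median length was 140 bp for H/ACA-named and 79 bp for C/D-named members. A further 3 members were U3 genes, and 30 had no class in their name. One gene of each main class is shown from the RefSeq release 6 (dm6) genome on its own strand, because the first had a Rel summit inside it and the second lay by the strongest Rel peak near any snoRNA gene. Capitals mark the ACA box in snoRNA:Psi28S-3342 (chrX:5524302-5524465, minus strand), and the C and D boxes in snoRNA:Me28S-C2645a (chr2L:20647817-20647891, plus strand).
snoRNA:Psi28S-3342: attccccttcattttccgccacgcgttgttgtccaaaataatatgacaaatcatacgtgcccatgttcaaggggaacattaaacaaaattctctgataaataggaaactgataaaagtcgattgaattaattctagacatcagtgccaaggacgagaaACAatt
snoRNA:Me28S-C2645a: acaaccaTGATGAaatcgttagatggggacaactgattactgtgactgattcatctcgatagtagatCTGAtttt

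A Rel summit of the optimal list (9419 peaks that the authors kept as reproducible between replicates) lay within 1000 bp of the start of 78 of the 257 snoRNA genes, or 30.4% (95% exact Clopper-Pearson interval 24.8 to 36.4%, counting error only). The same window held a summit for 25.6% of all genes and 36.1% of protein-coding genes. Leaving out transposable element genes put the share of the remaining genes at 32.4%. The 78 members shared only 47 distinct strongest peaks, with up to 8 members on 1 peak, so members are not independent observations and the interval is too narrow. The window decided on which side of all genes the members fell. At 500 bp, 12.5% of snoRNA genes and 20.7% of all genes had a summit, while at 2000 bp the shares were 61.5% of snoRNA genes and 31.6% of all genes.

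The count was alike in each replicate. Among the 9419 strongest peaks of each replicate, 81, 77 and 80 snoRNA genes had a summit within 1000 bp in replicates 1, 2 and 3 (79.3 ± 2.08, SD, n = 3), beside 25.8%, 25.7% and 25.5% of all genes. There were 66 members with a summit in all 3 of these lists and 163 with a summit in none. In the pooled list of 30000 peaks, 126 members had a summit, beside 39.8% of all genes, and 48 of these 126 lacked an optimal summit. In the whole replicate lists, 126, 131 and 127 members had one, and 94 members had none in any replicate. Shares over all genes were not counted for the whole replicate lists, nor for a summit in all 3 or in none. Those counts therefore describe the members only and set them against no other genes.

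The place of the snoRNA gene went with large differences in this count. In introns of protein-coding hosts on the same strand, 45 of 185 members had an optimal summit (24.3%, interval 18.3 to 31.2%), on 33 distinct peaks. Among the other 72 members it was 33 (45.8%, interval 34 to 58%), on 14 peaks. Of these, 24 of 45 in introns of non-coding hosts had a summit, on 7 peaks, and 8 of 11 intergenic members had one, on 6 peaks. A summit was near 1 of 6 members in or partly in an exon, snoRNA:CG43051-a, and near 0 of 10 members inside a gene on the opposite strand only (upper limit 30.8%). In every replicate the coding-intron share was the lower one, with 43, 44 and 46 of 185 members against 38, 33 and 34 of 72 other members in the strongest peaks of replicates 1, 2 and 3.

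**Figure D1:**
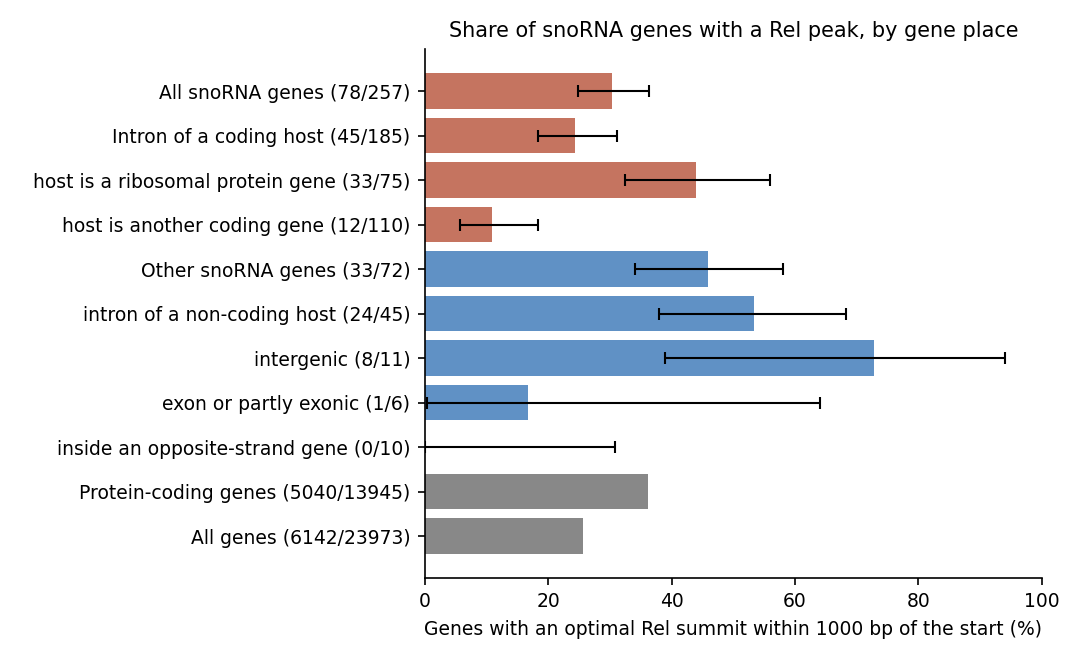
Share of genes with an optimal Rel summit within 1000 bp of the start (x axis, percent), by place of the snoRNA gene (rows, with counts), above protein-coding genes and all genes in grey; whiskers are 95% exact Clopper-Pearson intervals. Members in introns of ribosomal protein genes (33 of 75), in introns of non-coding hosts (24 of 45) and between genes (8 of 11) had larger shares than those in introns of other coding genes (12 of 110).

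Coding hosts were split by function, since many encode ribosomal proteins. In introns of ribosomal protein genes 33 of 75 members had a summit (44%, interval 32.5 to 55.9%), against 12 of 110 in introns of other coding genes (10.9%, interval 5.77 to 18.3%). The hosts themselves differed less, with a summit within 500 bp of an annotated start in 27 of 29 and 26 of 40 (65%). Median distances of members to the nearest host start also differed. They were 643 bp with and 1292 bp without a summit in ribosomal protein genes, against 1099 and 2518.5 bp in other coding genes. Whether host function or distance goes with the member shares was not tested. By guide class, 45 of 109 C/D-named and 24 of 115 H/ACA-named members had one. Within coding introns the counts were 23 of 57 for C/D-named and 18 of 104 for H/ACA-named members. Arpc2 carried 17 and RpS5a 14 of the H/ACA-named members, and 0 of these had a summit.

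Distance from the host's start went with the presence of a peak. Of coding-intron members within 1000 bp of an annotated transcription start of their host, 36 of 55 had a summit (65.5%), against 9 of 130 further away (6.92%). The median distance to the nearest host start was 668 bp for coding-intron members with a summit and 1865 bp for those without. By the first host intron that holds them, 16 of 51 members in intron 1, 16 of 46 in intron 2, 8 of 31 in intron 3 and 5 of 57 in later introns had a summit. A window of 1000 bp around the snoRNA start reaches a nearby host start by construction, so this difference does not separate the distance from the window.

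**Figure D2:**
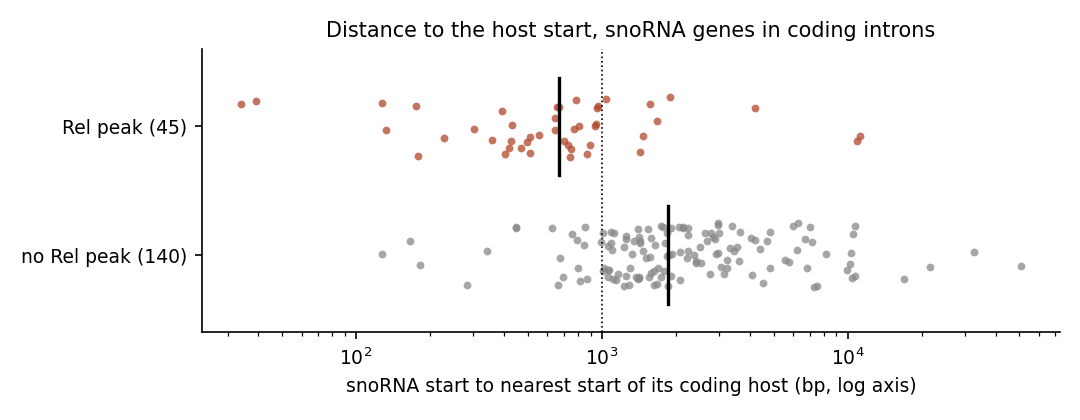
Distance from each coding-intron snoRNA gene to the nearest annotated start of its host (x axis, bp, log axis), for 45 members with and 140 without an optimal Rel summit; black bars are medians (668 and 1865 bp) and the dotted line is 1000 bp. Most members with a peak lay left of the dotted line.

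Summits lay beside snoRNA genes rather than on them. Only 2 of the 78 members had their strongest summit inside the gene, both intergenic. The strongest summit was upstream of the snoRNA start for 64 members and downstream for 14, at a median distance of 583 bp, and 15 members had it within 250 bp. In coding introns, 40 of 45 summits were upstream, with a median distance of 706 bp, whereas the intergenic members had a median of 115.5 bp.

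**Figure D3:**
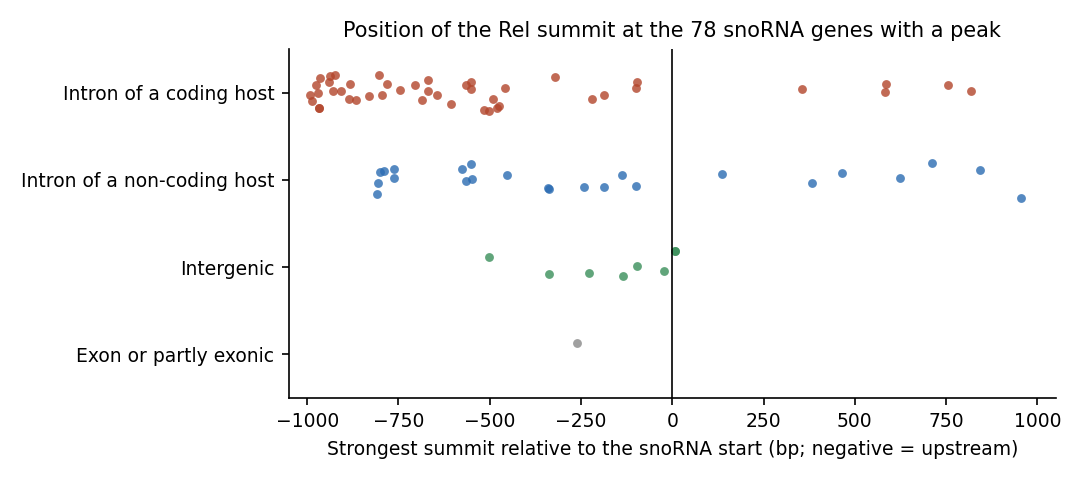
Position of the strongest optimal Rel summit relative to the snoRNA start (x axis, bp, negative upstream on the snoRNA's strand) for the 78 members with a peak, by place of the gene (rows; vertical jitter only separates points). Summits of coding-intron members spread upstream, and those of intergenic members lay close to the start.

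Most peaks with a host lay at its promoter. Of the 47 peaks, 40 belonged to members with a host, and 30 of these 40 lay within 500 bp of a start of that host, 23 of them within 100 bp. Of all 9419 optimal peaks, 4501 lay within 500 bp of a protein-coding start. The 40 were also kept for lying within 1000 bp of a snoRNA start inside a host, which favours peaks near host starts. The median distance from summit to host start was 74.5 bp, and 32 of the 40 summits were closer to a host start than to any snoRNA start. The same count by gene, within 500 bp of any start, gave 53 of 69 coding hosts (76.8%, interval 65.1 to 86.1%), against 33.5% of protein-coding genes. Hosts had more annotated starts (median 2) than protein-coding genes in general (median 1), and among genes with 1 start the shares were 69.0% (20 of 29) of hosts and 26.7% of protein-coding genes. Ribosomal protein hosts had a peak at a start in 27 of 29 cases, against 45 of 64 ribosomal protein genes that host no snoRNA. These 93 genes were taken by symbol (RpL or RpS with a number, and sta). Duplicate genes with such symbols were not set apart.

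**Figure D4:**
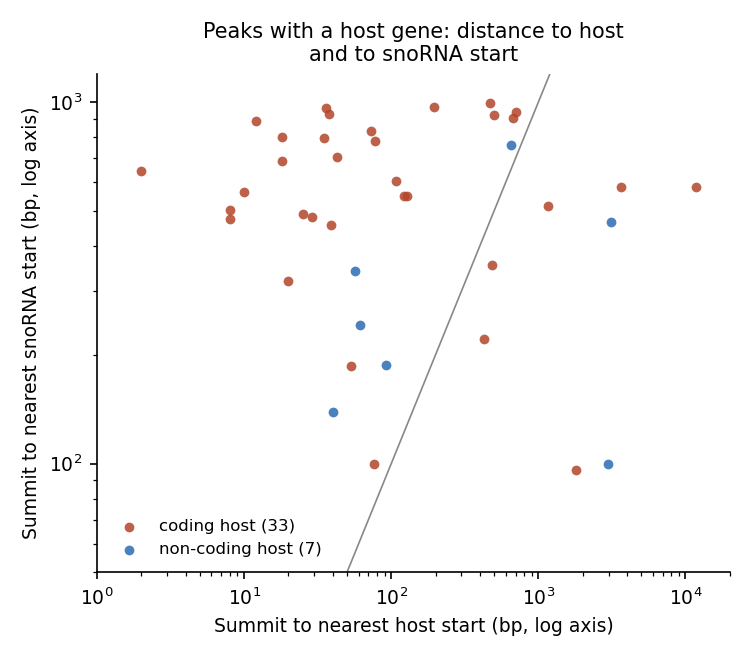
Distance of each of the 40 peaks with a host to the nearest host start (x axis, bp, log axis) and to the nearest snoRNA start (y axis, bp, log axis), for 33 peaks at coding and 7 at non-coding hosts; the line marks equal distances. The 32 points left of the line are closer to the host start.

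None of the 47 peaks was among the strongest 10% of the optimal list. Their median rank by signal was 4458, against 4710 for all optimal peaks, and the median signal was 401.7 against 382.5 on the peak caller's own scale. Of the 47, 9 were in the strongest 25% and 28 in the strongest 50%. A summit within 100 bp was present among the strongest peaks of all 3 replicates for 37 of them (78.7%), against 64.3% of all optimal peaks. Peaks without such a summit in any replicate were 0 of the 47 and 0.552% of all optimal peaks, so few were to be found in either.

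Levels were compared between replicates as a ratio, the signal of the replicate's peak divided by the median over its peaks that match an optimal peak. The strongest of the 47 lay at Uhg3, a spliced non-coding host whose introns hold snoRNA:Me28S-C2645a, snoRNA:Me28S-C2645b and snoRNA:Me28S-C2645c, guides for methylation of 28S ribosomal RNA by their names. The summit was 57 bp upstream of the Uhg3 start, ranked 1029, and had ratios of 2.64, 4.10 and 2.79 in replicates 1, 2 and 3 (3.18 ± 0.803, SD, n = 3). All 3 replicates were more than 2 times their own median, and replicate 2 was highest. Peaks were taken here in order of signal in a list made from these same replicates. High ratios therefore follow in part from that choice.

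Next came RpS6, which encodes a small-subunit ribosomal protein and hosts snoRNA:Or-aca2. Its peak ranked 1144 with ratios of 2.34, 3.67 and 2.87 (2.96 ± 0.667, SD, n = 3). This summit lay 483 bp inside the gene from its start and 355 bp past the snoRNA start, and a second, weaker optimal summit (rank 3871) lay 153 bp from the snoRNA start. At RpL11, host of snoRNA:Psi28S-2444, the summit was 18 bp from the gene start at rank 1467. Its ratios of 2.57, 2.20 and 2.47 (2.41 ± 0.189, SD, n = 3) were the closest together of these first 3.

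Further large-subunit hosts followed. RpL14, which holds snoRNA:U49:66Da and snoRNA:U49:66Db, had a summit 25 bp from its start at rank 1904, with ratios of 1.98, 1.46 and 2.44 (1.96 ± 0.491, SD, n = 3). RpL30, host of snoRNA:Me28S-A2113, had one 10 bp from its start at rank 2055, with ratios of 2.22, 1.50 and 1.77. RpL3 had one 8 bp from its start at rank 2421, next to snoRNA:Me18S-C1096 and snoRNA:Me18S-A425, with ratios of 1.96, 1.06 and 1.65. At these 3 genes replicate 2 was the lowest.

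The remaining peaks of the strongest 10 differed more in place. At pAbp, encoding the poly(A)-binding protein, the peak near snoRNA:Psi18S-1347a ranked 2006 and its ratios of 3.44, 1.50 and 1.01 (1.98 ± 1.28, SD, n = 3) were highest in replicate 1. At RpS4, host of snoRNA:Psi28S-3327a, the summit was 38 bp from the start at rank 2060, with ratios of 2.33, 1.35 and 2.01. For snoRNA:Me28S-A774b in RpS12, the summit at rank 2076 lay 709 bp from the RpS12 start but 45 bp from that of the neighbouring Adk2, an adenylate kinase gene, with ratios of 1.97, 1.79 and 1.79. At Uhg4, a non-coding host, the summit was 40 bp upstream of the start at rank 2294, near snoRNA:Psi28S-2949, snoRNA:Or-aca5 and snoRNA:Me28S-G3255a, with ratios of 2.00, 0.951 and 1.97. Replicate 2 was below its own median there.

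**Figure D5:**
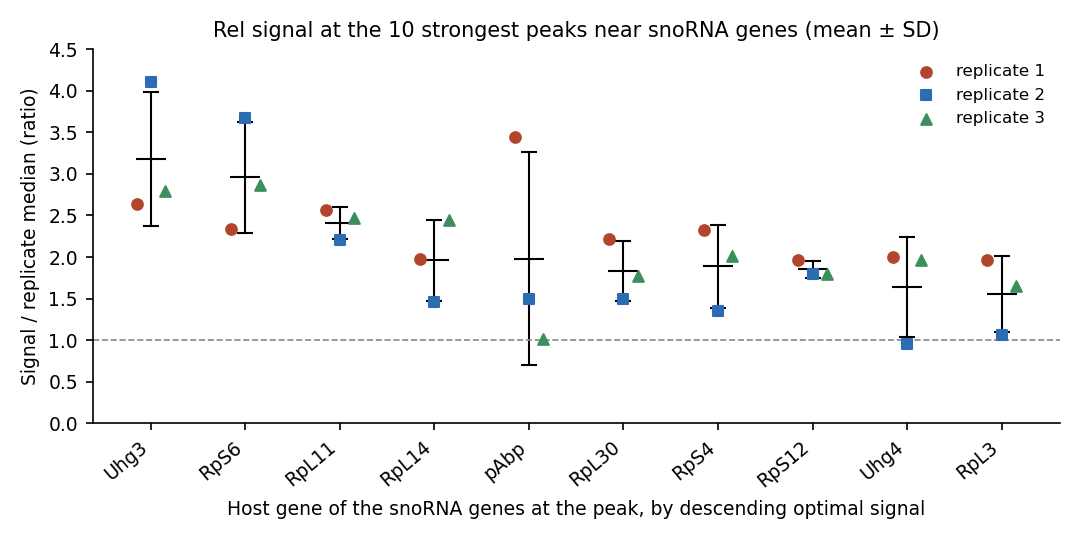
Rel signal divided by the replicate's median over matched peaks (y axis, ratio) at the 10 strongest peaks near snoRNA genes, named by host (x axis, descending signal); symbols are replicates, black marks are mean ± SD (n = 3), and the dashed line is a ratio of 1. The peaks at Uhg3, RpS6 and RpL11 are above 2 in all 3 replicates, and pAbp has the widest spread. Because the peaks were chosen by signal from these same replicates, high ratios follow in part from the choice.

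Other ribosomal protein hosts of members with a peak included RpS20, sta, RpS29, RpS16, RpL28, RpL27A, RpL13A, RpL36A, RpS7, RpS9, RpL17, RpL10Ab and RpL22. The strongest member peaks of those named ranked between 2463 (RpS20) and 8168 (RpL22), and all but that of RpL22 lay within 128 bp of a host start. The RpL22 summit was 1800 bp from the host start, 96 bp from snoRNA:Psi18S-531 and 480 bp from the start of lncRNA:CR42491. At RpS12 a second peak (rank 5747) lay 12 bp from the host start, and RpL3 had another near snoRNA:Psi28S-291 that was 27 bp from the start of asRNA:CR31144.

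Beyond ribosomal proteins and pAbp, 9 coding hosts had a member with a peak. These were Stt3A (an oligosaccharyltransferase subunit), Swim, Dek (a chromatin protein), eEF1alpha1 (a translation elongation factor), Sf3b3 and Prp39 (splicing factors), gcl (germ cell-less), Nop60B (the fly dyskerin) and Arf1 (a small GTPase). The strongest summit within 1000 bp of each member in these hosts ranked between 4520 (Stt3A) and 9012 (Arf1). Nop60B and Swim had no peak at a start of their own. The summit for the Nop60B snoRNAs lay 11767 bp from the host start and 59 bp from that of ocm, and Swim had 2 optimal summits by snoRNA:Me18S-C1968, the nearer 23 bp from its start at rank 7085.

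Non-coding Uhg hosts behaved differently from one another. Uhg2, Uhg3, Uhg4 and Uhg5 had a summit within 500 bp of their start, and Uhg1 and Uhg8 had none in the optimal list, though both had one in the pooled list (ranks 14495 and 10406). Uhg1 carries 16 C/D snoRNA genes, 9 of them with a summit. A single summit 2975 bp from the Uhg1 start (rank 6604) was shared by 8 of these, from snoRNA:U27:54Ea to snoRNA:snR38:54Ec, with ratios of 0.691, 0.703 and 0.730 (0.708 ± 0.0198, SD, n = 3). All 3 values were under the median peak and differed little between replicates. The ninth, snoRNA:Me28S-G3081a, was near a summit 83 bp from the start of the neighbouring rdgBbeta, a lipid transfer protein gene.

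At Uhg5, which carries 11 C/D snoRNA genes, 3 members shared the peak 61 bp upstream of the start (rank 5438). Another 3 shared a summit 3118 bp from that start (rank 7026), which lay past the 3′ end of Uhg5. At Uhg2, 3 of 4 members, among them snoRNA:U14:30Ea, shared the peak 92 bp upstream of the start (rank 4686). The seventh non-coding host, lncRNA:CR31647, had no peak.

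Many hosts had a peak at their start but none near their snoRNAs. This was so for 24 coding hosts, among them the 2 coding hosts with the most members. Arpc2, an Arp2/3 complex subunit, holds 17 H/ACA snoRNA genes and had a peak 20 bp from its start (rank 8782), but its nearest member lay 1258 bp from that start and 0 of the 17 counted. For dom, a chromatin remodelling ATPase with 15 members, the peak was 28 bp from the start (rank 8675) and the nearest member 1788 bp away. Both peaks were weak, matched among the strongest peaks of 2 replicates at Arpc2 and of 1 at dom. RpS5a with 14 members (peak rank 2979), kra with 8 (3389) and Hrb98DE, an RNA-binding protein gene with 7 (175), likewise had a peak at a start and no member with one, and were singled out after their values were seen. Of the ribosomal protein hosts, RpL15 and RpL5 alone had no peak at a start. Both lay in stretches without optimal peaks, the nearest summit being 1254072 bp from the nearest RpL15 member and 44394 bp from the RpL5 member.

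The 2 summits closest to a snoRNA start belonged to intergenic members. The summit at snoRNA:Psi28S-3342 (rank 4155) fell 8 bp inside the gene, and the nearest start of another gene was 6957 bp away. Its ratios were 0.760, 1.29 and 1.07 (1.04 ± 0.266, SD, n = 3), lowest in replicate 1. At snoRNA:Psi18S-176 (rank 3107) the summit fell 7 bp inside, with ratios of 1.51, 1.27 and 1.34, all above 1. At snoRNA:Psi18S-301 (rank 8125) it was 97 bp upstream, with ratios of 0.737, 0.431 and 0.603, all below 1.

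A cluster of 3 snoRNA genes, led by snoRNA:Psi28S-1153, shared a summit (rank 3921) 134 bp upstream of its nearest member and 356 bp from the start of CG13334. For snoRNA:185 the summit (rank 4137) was 228 bp upstream and 151 bp from the start of tRNA:Glu-TTC-1-5. The summit of snoRNA:U3:54Ab had a tRNA gene, tRNA:Leu-AAG-1-3, 293 bp away. Whether these neighbours or the snoRNA genes are the bound units cannot be told apart in these lists.

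The 3 U3 genes differed. snoRNA:U3:54Ab had an optimal summit 24 bp upstream of its start (rank 5745), with ratios of 0.630, 0.883 and 0.773 (0.762 ± 0.127, SD, n = 3). snoRNA:U3:54Aa had no optimal summit but a pooled one (rank 12715), and the whole lists of replicates 1, 2 and 3 held 2, 1 and 3 summits near it, with replicate 2 alone having one among its strongest peaks. snoRNA:U3:9B had no optimal or pooled summit, and the whole lists of replicates 1, 2 and 3 held 0, 1 and 2 summits near it, none among the strongest peaks. The starts of an intergenic gene with a peak and of this U3 gene without one are shown as examples. They run from 100 bases before the start, with capitals from the first base of the gene on. The genes differ in class (H/ACA-named and U3), and the peak of the first is weak (rank 8125). Differences between the windows therefore cannot be tied to the peak. The first window is chr3R:20574806-20574955 and the second chrX:10348025-10348174, both plus strand, from the RefSeq release 6 genome.
snoRNA:Psi18S-301: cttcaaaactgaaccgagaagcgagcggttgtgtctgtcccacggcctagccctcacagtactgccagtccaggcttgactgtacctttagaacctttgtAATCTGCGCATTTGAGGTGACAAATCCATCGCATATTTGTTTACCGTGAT
snoRNA:U3:9B: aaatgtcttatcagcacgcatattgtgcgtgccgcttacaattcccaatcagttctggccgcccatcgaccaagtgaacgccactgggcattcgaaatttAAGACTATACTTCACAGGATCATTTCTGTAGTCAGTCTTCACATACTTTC

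Motifs were searched on both strands within 100 bp of the 47 summits, a window of 201 bp. The κB consensus matched under 5 peaks (10.6%), against 7.80% of all optimal peaks and 5.02% of the optimal peaks within 500 bp of a protein-coding start. Replicates were also left out in turn by keeping only optimal peaks matched among the strongest peaks of both other replicates. The optimal list itself was not remade. In these lists the κB share was below that of all kept peaks without replicate 1 or without replicate 3. It was 3 of 40 (7.50%) without replicate 1 and 3 of 38 (7.89%) without replicate 3, against 8.99% and 8.94% of all peaks kept in those lists, and 4 of 42 (9.52%) without replicate 2, against 8.19%. The DRE (TATCGATA), bound by DREF at growth and replication genes, matched under 8 (17.0%), against 3.35% of all optimal and 6.51% of promoter peaks. The Ohler1 core (GGTCACAC), a core promoter element, matched under 5 (10.6%), against 3.80% and 7.55%. The E-box CANNTG matched under 25 (53.2%, against 64.5% of all optimal peaks) and GATA under 36 (76.6%, against 74.5%), and the DRE itself contains GATA. A match describes letters in the window and is no evidence of binding by a factor.

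The matches are printed with 10 bases on each side, on the strand that reads along the host gene, with the motif or its reverse complement in capitals. The κB matches lay 15 bp from the summit at RpS6 (chrX:7900818-7900847, minus strand), 46 bp at RpS20 (chr3R:20822090-20822119, plus strand) and 13 bp at RpL22 (chrX:763328-763357, minus strand). The DRE matches shown lay 16 bp from the summit at RpS29 (chr3R:9778047-9778074, plus strand) and 1 bp at Prp39 (chr3R:28812079-28812106, plus strand), and the Ohler1 core 29 bp at RpL30 (chr2L:19009262-19009289, minus strand).
RpS6 κB: acgacaagcaGGGATTCCCCatgaagcagg
RpS20 κB: tttagctcaaGGAACACCCCaaatgcagtt
RpL22 κB: tcatttgactGGAAACCCCCttaagaagtt
RpS29 DRE: tcgtggaaaaTATCGATActgccacccc
Prp39 DRE: gggacatgtaTATCGATAccacgttgca
RpL30 Ohler1: tccccccgtcGGTCACACcaacacaaac

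The remaining κB matches were at Arf1 (2 overlapping) and Swim. Ribosomal protein hosts thus had 3 of the 5 peaks with a κB match, beside 23 of all 47 peaks. The remaining DRE matches were at RpL28, RpL36A, RpS12, RpL10Ab, Stt3A, a second site at Prp39 and the Uhg1 member's peak by rdgBbeta. The Ohler1 core was also at sta, RpL27A, Uhg5 and eEF1alpha1. No κB match was found in this window under the peaks at Uhg3, Uhg4, Uhg5, Uhg2 or any intergenic snoRNA gene. Most optimal peaks lacked one too, since 735 of all 9419 (7.80%) had a match, so this absence is not particular to these peaks.

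Starts of some hosts carried CTTT, the core of a pyrimidine-rich start element of translation genes. Within 5 bases of an annotated start, CTTT occurred in 27 of 69 coding hosts (39.1%), against 8.07% of protein-coding genes. With 1 annotated start, it occurred in 10 of 29 coding hosts (34.5%), against 5.37% of protein-coding genes. It occurred in 19 of 29 ribosomal protein hosts, in 8 of 40 other coding hosts and in 3 of 6 Uhg hosts (Uhg1, Uhg4 and Uhg5). Of the hosts at the 10 strongest peaks, 7 had it (RpS6, RpL14, pAbp, RpL30, RpS4, Uhg4 and RpL3) and 3 did not (Uhg3, RpL11 and RpS12).

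Proteins that act with snoRNAs were examined from a list of 17, of which 12 were matched by name. Of these 12, 7 had an optimal summit within 1000 bp of the gene start. On the H/ACA side these were NHP2 (rank 4937) and Nop10 (6052), while the pseudouridine synthase Nop60B and Gar1 had none. On the C/D side, nop5 (7133), Nop56 (5041) and hoip (3436) had one, while the methyltransferase Fib had none. The chaperone Nopp140 (3426) had ratios of 1.21, 1.24 and 1.25, nearly the same in all replicates, and the assembly ATPase pont (3665) had ratios of 1.21, 0.925 and 1.30. The ATPase rept and the U3 protein U3-55K had no summit. Replicate support differed between the 7 genes. The ratios in replicates 1, 2 and 3 were 1.02, 0.85 and 0.583 at Nop10 and 1.16, 0.51 and 1.11 at Nop56. They were 0.17, 1 and 0.746 at nop5. At NHP2 and hoip, replicate 1 had no summit within 100 bp of the ranked one. The count of 7 in 12 stands beside 36.1% of protein-coding genes. It was 7 in the list without replicate 1 and 5 without replicate 2 or replicate 3.

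Near-identical copies were counted apart, since how the authors treated reads that map to several places is not given. Of 32 members at least 90% identical to another member, 8 had a summit (25%), against 70 of 225 without such a copy (31.1%). Just inside the 1000 bp limit were snoRNA:Psi28S-1175a (976 bp), snoRNA:Psi18S-1377a (986 bp) and snoRNA:Me28S-G764 (993 bp). Just outside it were snoRNA:Me28S-A982a (1004 bp), snoRNA:Me28S-U1848 and snoRNA:Me18S-A28a (1030 bp each).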

How the data were processed

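Rel-eGFP ChIP-seq peaks of 3 replicates were analysed. Peak calling on dm6 was done by the authors for each replicate and for all replicates together, with a control, and an optimal list was derived by irreproducible discovery rate, per the file headers. Aligner, caller and threshold: not given in the sources used here. Peaks were ranked within a list by the signal that the authors deposited. The deposited −log10 q-value was not used. Read depth is unknown, so lists of equal length and ratios to each replicate's median were used. Genes came from Ensembl release 115 and sequence from the RefSeq release 6 genome. A coding-intron member lies wholly in an intron of a same-strand protein-coding gene. Summits within 100 bp counted as shared between lists. No test was run, since there is 1 group. The named genes are those at the 10 strongest peaks, hosts of members with a peak, the U3 genes, the 3 hosts with most members, and the 3 members on each side of 1000 bp. Outside this rule, members with a peak but no host were named. So were the hosts RpS5a, kra, Hrb98DE, RpL15, RpL5, Uhg8 and lncRNA:CR31647, which have no member with a peak. Members, gene lists and motifs were chosen with earlier results of these data known. Scripts ran in Python 3.11.15 with NumPy 2.4.6, SciPy 1.17.1 and matplotlib 3.10.9 and were tested on simulated data. One host gene is not reported here. Alternatives were window, peak list, replicate left out, host strand and motif window.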

Additional observations from a re-analysis of the deposited data

How the results depend on the processing

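Of 85 alternative values, 55 stayed within 1.5 times the reported count, or within the spread between replicates for ranks and ratios, and 30 moved. A 500 bp window gave 32 snoRNA genes with a peak (14 in coding introns, 18 others) on 27 peaks, and a 2000 bp window gave 158 (104 and 54) on 72 peaks with a median rank of 3590.5. Requiring the peak interval to overlap the gene gave 12 (5 and 7) on 11 peaks, and the share over all genes was not counted for this rule. The stronger 50% of optimal peaks gave 44 (27 and 17) on 28 peaks. These were 17.1% of snoRNA genes (14.6% in coding introns, 23.6% of others), beside 14.7% of all genes. This list also gave 36 hosts with a peak at a start, 3 κB, 5 DRE and 3 Ohler1 matches and 3 snoRNP protein genes. Shares over all genes or peaks were not counted for these. The pooled list gave 126 (77 in coding introns) on 79 peaks. The mean count per replicate was 128 in whole lists. Within 50 bp of the summit, 5 DRE and 3 Ohler1 matches were found, and the share over all optimal peaks was not counted at that width. Leaving out a replicate kept the optimal peaks with a summit within 100 bp among the strongest peaks of both other replicates. This left 6568 to 7023 peaks. The optimal list itself came from all 3 replicates and was not remade, so counts of genes with a peak could only fall or stay. These lists gave 66 to 72 snoRNA genes with a peak, of which 35 to 39 were in coding introns and 31 to 33 were others. They were on 38 to 42 peaks, and 47 to 49 hosts had a peak at a start. There were 3 to 4 κB matches (3 without replicate 1 or replicate 3). In those lists 18.9 to 21.1% of coding-intron members, 43.1 to 45.8% of other members and 19.7 to 20.5% of all genes had a peak. The alternatives for host, motif and snoRNP counts by list, and for ranks and ratios without a replicate, were chosen after seeing the data. No paired analysis was possible because all samples form 1 group. The lists hold no read counts, so counting error of a peak's signal cannot be given, and peaks outside the deposited lists cannot be seen.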
